A study of Rattus norvegicus with 6 samples.

Results

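The genes of the major histocompatibility complex (MHC) antigen presentation pathways were followed in the vestibular sensory epithelium of the rat inner ear, with 5 genes of the class I route (B2m, Tap1, Psmb8, Psmb9 and Nlrc5) set against 5 genes of the class II route (Cd74, RT1-Ba, RT1-Bb, RT1-Da and RT1-DMb). These 10 genes, of 32883 in the count table, were matched by gene symbol, and all 10 were found and passed the filter on low counts. They were picked because their changes in this same comparison were already known, so their values are given as a description with no p, and where a member is said to pass the thresholds below, that restates the choice and is no independent evidence. The samples were 3 control and 3 IDPN-4wk male adult Long-Evans rats, each giving 1 bulk RNA-seq library from its pooled utricles and cristae. Control rats drank plain water, and IDPN-4wk rats drank water with 20 mM of 3,3'-iminodipropionitrile (IDPN) for 4 weeks, an exposure that damages the sensory hair cells (HCs). No genetic modification is given for either group, the age is not in the labels, and all 6 libraries carry 1 batch label.

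MHC class I molecules stand on nearly all nucleated cells and show peptides from the inside of the cell to CD8+ T cells. The proteasome cuts the peptides, the Tap1-Tap2 transporter carries them into the endoplasmic reticulum, and a heavy chain paired with B2m holds them, while Nlrc5 is the transactivator of class I genes. Class II molecules are carried mainly by macrophages, dendritic cells and B cells, bind peptides taken up from outside under the care of the invariant chain Cd74, and are switched on by the transactivator Ciita, and both routes respond to interferon-gamma.

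Depth was from 13358678 to 18561991 counts per library. Values are CPM, the counts relative to the library total scaled with TMM, so a CPM compares libraries for the same gene and not levels between genes. A gene was called upregulated or downregulated when its adjusted p (Padj) from the edgeR quasi-likelihood test over 14352 genes was under 0.05 and its fold change was over 1.5. Over all 14352 genes the median was 0.02 on the log2 scale with TMM and 0.13 with library size alone, so changes of that order depend on the scaling. The tissue label was checked against 8 HC and 9 supporting cell markers. All of them passed the filter, and their summed levels were from 2184 to 2340 CPM and from 10444 to 11420 CPM in control libraries. In IDPN-4wk libraries the sums were from 1151 to 1483 CPM and from 5878 to 7136 CPM, with 4 HC genes (Otof, Myo7a, Tmc1 and Slc17a8, of which Myo7a lost its call without control replicate 2) and 3 supporting cell genes (Otog, Otogl and Gjb6) downregulated. The most abundant of each list were Otof (log2-Fold change -1.19) and Myo6 (-0.52, under the fold change threshold) for HCs and Otog (-0.97) and Gjb6 (-0.86) for supporting cells. All 8 HC genes and 7 of the 9 supporting cell genes had negative values. Hes1 (0.36) and Sox9 (0.24) were positive and not called. Otog alone averaged 6262 CPM of the mean supporting cell sum of 10839 CPM in control libraries.

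Most class I members were higher and most class II members lower in the IDPN-4wk rats. The class I members had log2-Fold changes from 0.03 (B2m) to 1.52 (Nlrc5) with a median of 0.61, and the class II members from -4.06 (RT1-Bb) to 0.98 (RT1-DMb) with a median of -2.70. The split was not complete, since B2m was level with control and RT1-DMb was higher. Both thresholds were passed upwards by 3 of the 5 class I members and downwards by 4 of the 5 class II members. Among all tested genes, 9.71% were called in either direction, 3.09% upwards and 6.62% downwards. The libraries did not overlap between groups in 9 of the 10 members and in 37.8% of all tested genes, 18.5% upwards and 19.3% downwards. These shares stand beside the members only as background, since the members were chosen on this contrast.

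**Figure D1:**
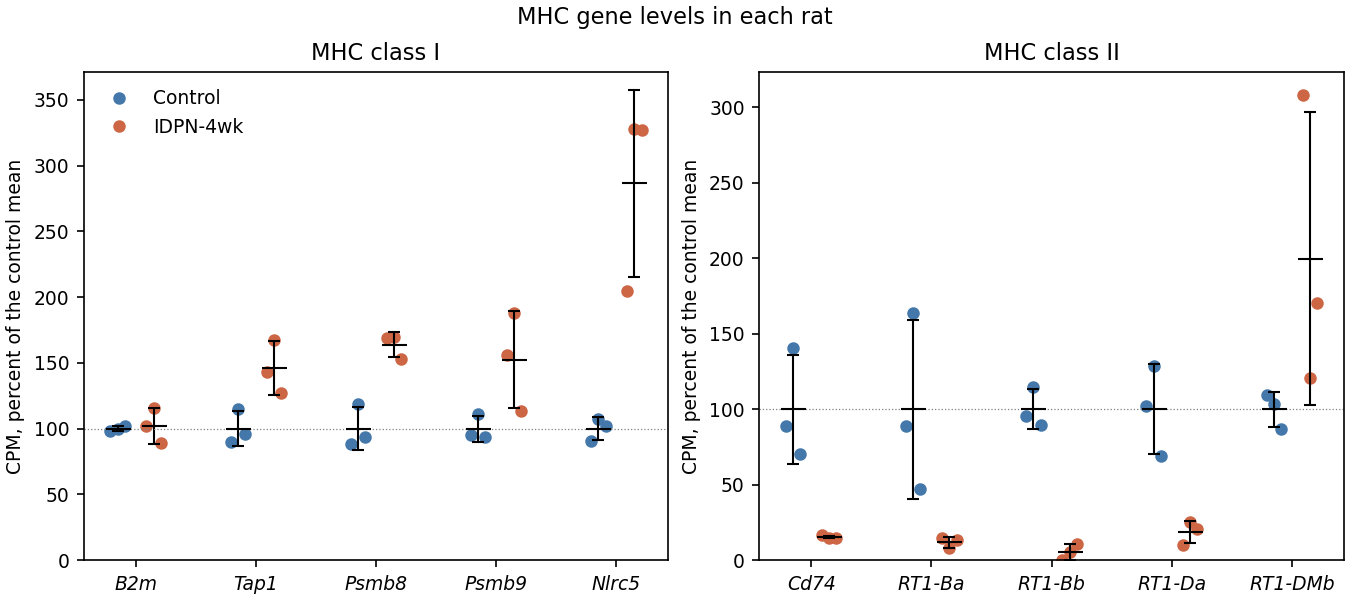
Level of each class I member (left) and class II member (right) as a percent of its control mean CPM, with 1 point per rat in blue for control and orange for IDPN-4wk, and bars for the group mean and SD (n = 3 each). Class I members other than B2m, and RT1-DMb, were higher in all 3 IDPN-4wk rats than in any control rat, and the remaining 4 class II members were lower in all 3.

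Cd74, RT1-Ba, RT1-Bb and RT1-Da were all lower in IDPN-4wk libraries. To show the letters that the promoters of these class II chains have in common, beside those of class I members, the 160 bases just before the start of 5 members are printed 5′ to 3′ in the direction of transcription. They come from the RefSeq annotation of the rat build GRCr8, which is not the build of the counts. In the 3 class II promoters the capitals mark the Y box (CTGATTGG) and, in RT1-Da, also the X box (AGCAAC, then any base, then GATG) upstream of it. These elements of class II promoters are bound by the NF-Y and RFX complexes, on which Ciita acts. In B2m and Tap1 the capitals mark an element like the interferon-stimulated response element (TTTC, any 2 bases and TTTC, on either strand), of the kind bound by interferon regulatory factors. The windows are at chr20:4515255-4515414 (plus strand) for RT1-Da, at chr20:4576897-4577056 (plus strand) for RT1-Ba, at chr20:4604119-4604278 (minus strand) for RT1-Bb, at chr3:129549170-129549329 (plus strand) for B2m and at chr20:4668544-4668703 (minus strand) for Tap1.
RT1-Da: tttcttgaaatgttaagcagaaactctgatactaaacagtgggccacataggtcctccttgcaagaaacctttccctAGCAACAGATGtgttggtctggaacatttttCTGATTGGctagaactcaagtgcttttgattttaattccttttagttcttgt
RT1-Ba: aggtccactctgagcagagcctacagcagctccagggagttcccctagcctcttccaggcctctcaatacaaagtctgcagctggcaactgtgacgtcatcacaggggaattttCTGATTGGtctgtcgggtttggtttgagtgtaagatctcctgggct
RT1-Bb: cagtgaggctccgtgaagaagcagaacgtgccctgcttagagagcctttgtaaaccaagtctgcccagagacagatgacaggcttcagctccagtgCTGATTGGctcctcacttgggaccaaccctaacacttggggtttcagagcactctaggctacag
B2m: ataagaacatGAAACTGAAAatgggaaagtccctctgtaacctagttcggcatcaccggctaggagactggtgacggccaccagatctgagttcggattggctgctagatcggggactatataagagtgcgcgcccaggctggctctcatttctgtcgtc
Tap1: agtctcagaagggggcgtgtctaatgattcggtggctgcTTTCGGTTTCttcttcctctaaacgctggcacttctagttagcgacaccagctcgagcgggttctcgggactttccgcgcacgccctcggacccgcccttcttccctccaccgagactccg

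Both strands of the 250 bases before the start were searched for exact letters in 27457 RefSeq windows, and 8 of the 10 members had a window (Nlrc5 and RT1-DMb had none). The Y box stood in 3 of the 4 class II members with a window, in 0 of the 4 class I members and in 3.26% of all windows. It began 52 bases before the start in RT1-Da, 46 in RT1-Ba and 64 in RT1-Bb, and Cd74 held only its inner letters ATTGG, which stood in 34.3% of all windows and are part of the Y box itself. The same inner letters stood in B2m and Psmb8, 2 of the 4 class I members. The X box stood in RT1-Da, 83 bases before the start, in no other member and in 0.0437% of all windows. The same boxes were found in other class II chain genes, with a Y box in 4 and an X box in 3 of 6 windows. The Y box was not limited to class II, since among the RT1 class I heavy chains in the count table it also stood in 4 of 18 windows, RT1-A2 and RT1-S3 among them, where its inner letters stood in 13 and the X box in 0. It stood in 4 further listed heavy chains that are not in the table. In every heavy chain with a Y box the letters stood on the opposite strand, as CCAATCAG. In the class II genes with a Y box they stood in the direction of transcription, as CTGATTGG. The interferon-stimulated element stood in B2m and Tap1, in 0 of the 4 class II members and in 3.29% of all windows, and the STAT-type letters TTCNNNGAA stood in Psmb8 alone among the members and in 7.52% of all windows. Tap1 and Psmb9 are read in opposite directions from a shared promoter, and their full RefSeq windows of 300 bases, which also hold bases after the start, overlap by 44 bases. A match of letters is a description of the sequence and no measure of binding.

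Cd74, the invariant chain that guides class II molecules to the endosome, carried 75.1% of the summed class II signal in control libraries. Its level was 28.8, 45.5 and 22.9 CPM in control rats 1, 2 and 3 and 5.32, 4.80 and 4.83 CPM in the IDPN-4wk rats. The lowest control was thus well above the highest treated rat, and the treated rats were close to one another while the controls were not. The log2-Fold change was -2.70 (SE 0.24), and the IDPN-4wk mean was 15.4% of control. Leaving out each library in turn gave log2-Fold changes from -2.90 to -2.38.

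RT1-Ba and RT1-Bb encode the alpha and beta chains of the RT1-B molecule, the rat counterpart of human HLA-DQ. RT1-Ba was at 1.74, 3.22 and 0.920 CPM in control and at 0.288, 0.155 and 0.258 CPM in treated rats, from 27, 46 and 13 counts against 4, 3 and 4. RT1-Bb was at 1.74, 2.10 and 1.63 CPM in control, and at 0, 0.103 and 0.193 CPM in treated rats, from 27, 30 and 23 counts against 0, 2 and 3. Neither gene overlapped between groups, and in the treated rats both were close to the limit of detection, since a count of 0 allows up to 3 counts, or from 0.155 to 0.216 CPM depending on the library. Over the pooled libraries, the IDPN-4wk level was 11.5% of control for RT1-Ba (95% exact interval 5.54 to 21.6%) and 5.62% for RT1-Bb (95% exact interval 1.78 to 13.7%), intervals that cover counting error only. The fitted log2-Fold changes were -3.06 (SE 0.59) for RT1-Ba and -4.06 (SE 0.62) for RT1-Bb, and at such low counts they depend on the prior count of the fit. Without IDPN-4wk replicate 3 the value of RT1-Bb was -4.78, and leaving out each library gave from -4.78 to -3.59 for RT1-Bb and from -3.40 to -2.51 for RT1-Ba.

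RT1-Da encodes the alpha chain of RT1-D, the counterpart of HLA-DR. It was at 3.55, 4.47 and 2.41 CPM in control and at 0.359, 0.877 and 0.708 CPM in treated rats. Every treated rat was below every control rat, with a log2-Fold change of -2.38 (SE 0.41). The control rats kept 1 order in Cd74, RT1-Ba, RT1-Bb and RT1-Da, with replicate 2 highest and replicate 3 lowest. Control replicate 3 is also the control whose animal code has a prefix of its own, the meaning of which is not stated. The treated rats kept no common order in these 4 genes. Their summed level was 35.8, 55.3 and 27.8 CPM in control and 5.97, 5.93 and 5.99 CPM in treated rats, with means of 39.6 and 5.96 CPM.

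RT1-DMb, the beta chain of the DM molecule that exchanges the invariant chain fragment for peptide, went the other way. It was at 3.55, 3.35 and 2.83 CPM in control and at 9.99, 3.92 and 5.54 CPM in treated rats. All treated rats were above all controls, but IDPN-4wk replicate 1 stood far above the other treated rats. The log2-Fold change was 0.98 (SE 0.33), was not past both thresholds, and was 0.53 without IDPN-4wk replicate 1. RT1-DMa, which encodes the partner alpha chain and is no member, was at 2.52, 15.9 and 10.8 CPM in control and at 16.9, 10.1 and 19.8 CPM in treated rats. Its groups overlapped (log2-Fold change 0.68, SE 0.47, edgeR Padj 0.343).

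In the class I route, Nlrc5 had the largest log2-Fold change of the 5 members. It was at 2.07, 2.45 and 2.34 CPM in control and at 4.67, 7.48 and 7.47 CPM in treated rats. The groups were apart, with the lowest treated rat, replicate 1, still above the highest control, and the log2-Fold change was 1.52 (SE 0.27). Without each library in turn it stayed between 1.41 and 1.70.

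Psmb8 and Psmb9 are catalytic subunits of the immunoproteasome, the form of the proteasome that favours peptides suited to class I. Psmb8 was at 10.0, 13.5 and 10.6 CPM in control and at 19.2, 19.3 and 17.4 CPM in treated rats (log2-Fold change 0.71, SE 0.15). Psmb9 was at 10.0, 11.7 and 9.84 CPM in control and at 16.5, 19.8 and 12.0 CPM in treated rats (log2-Fold change 0.61, SE 0.19). Psmb8 was well separated between the groups. For Psmb9 the gap was narrow, since IDPN-4wk replicate 3 was just above control replicate 2. When each library was left out in turn, Psmb9 passed both thresholds 1 time in 6, without IDPN-4wk replicate 3 (log2-Fold changes from 0.43 to 0.77).

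Tap1, a subunit of the peptide transporter, was at 27.5, 35.2 and 29.4 CPM in control and at 43.9, 51.5 and 39.1 CPM in treated rats. The groups did not overlap, but the log2-Fold change of 0.55 (SE 0.13) was below the fold change threshold. It passed the threshold with library size alone and when either control replicate 2 or IDPN-4wk replicate 3 was left out. B2m, the light chain shared by all class I molecules, was at 227, 232 and 236 CPM in control and at 235, 268 and 206 CPM in treated rats. The treated rats lay on both sides of the controls, with a log2-Fold change of 0.03 (SE 0.09) under TMM and 0.14 with library size alone, where the median of all genes was 0.13. In B2m, Tap1, Psmb8 and Psmb9 alike, IDPN-4wk replicate 2 was the highest and replicate 3 the lowest of the treated rats.

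Summed over members, class I was the larger sum in every library, and the class II sum made up a smaller part of it in the treated rats. The 5 class I members together made 276, 295 and 288 CPM in control and 320, 366 and 282 CPM in treated rats, and these ranges overlapped. B2m held 80.9% of that sum in control libraries, and without it the sum was 54.9 ± 7.05 CPM in control and 86.1 ± 11.2 CPM in treated rats (± SD of 3 rats each). The 5 class II members made 39.4, 58.6 and 30.6 CPM in control and 16.0, 9.85 and 11.5 CPM in treated rats, with no overlap. Without Cd74 the sum was 10.6, 13.1 and 7.79 CPM in control and 10.6, 5.06 and 6.70 CPM in treated rats, which overlapped and averaged 71.0% of control. RT1-DMb made most of what remained in the treated rats, and RT1-Ba, RT1-Bb and RT1-Da together were at 7.04, 9.78 and 4.95 CPM in control and 0.647, 1.13 and 1.16 CPM in treated rats, with no overlap. With all 5 members, the class II sum was 14.2, 19.9 and 10.6% of the class I sum in control rats and 4.99, 2.70 and 4.09% in treated rats. These percentages compare sums of counts and carry no correction for gene length.

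**Figure D2:**
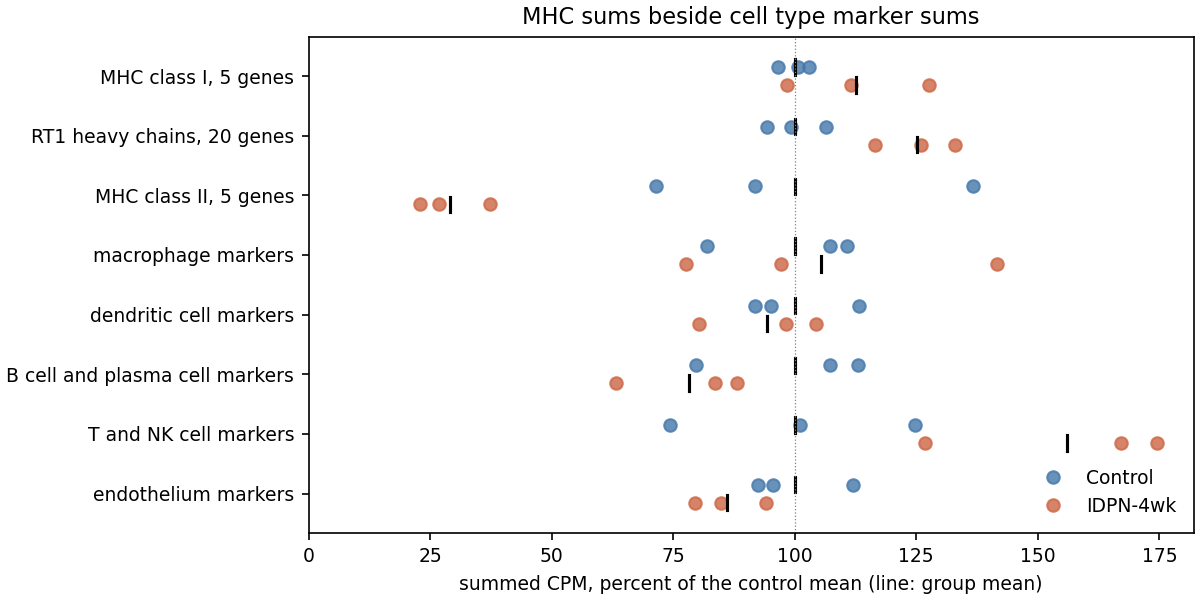
Summed CPM of the members of each class, of the RT1 heavy chains and of the marker lists of macrophages, dendritic cells, B and plasma cells, T and NK cells and endothelium, as a percent of the control mean, with 1 point per rat and a short line at each group mean (n = 3 each). The class II sum of the IDPN-4wk rats was 29.0% of control on average and lay apart from the control rats, the sums of the RT1 heavy chains and of the T and NK cell markers were higher in all treated rats than in any control rat, and the other sums plotted overlapped between groups.

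The position of the members in the MHC was read from the order of genes in RefSeq, and no coordinates of that annotation were applied to the counts. The class II region on chromosome 20 holds RT1-Da, RT1-Db1, RT1-Ba and RT1-Bb at one end, then Tap2, Psmb8, Tap1 and Psmb9, then RT1-DMb and RT1-DMa. In this order the log2-Fold changes ran from -2.38, -1.38, -3.06 and -4.06 to 0.35, 0.71, 0.55 and 0.61 and then to 0.98 and 0.68. The 7 members in the region thus had negative values up to RT1-Bb and positive ones from Psmb8 on, and RT1-DMb had the sign of its class I neighbours. B2m, Nlrc5 and Cd74 are on other chromosomes.

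**Figure D3:**
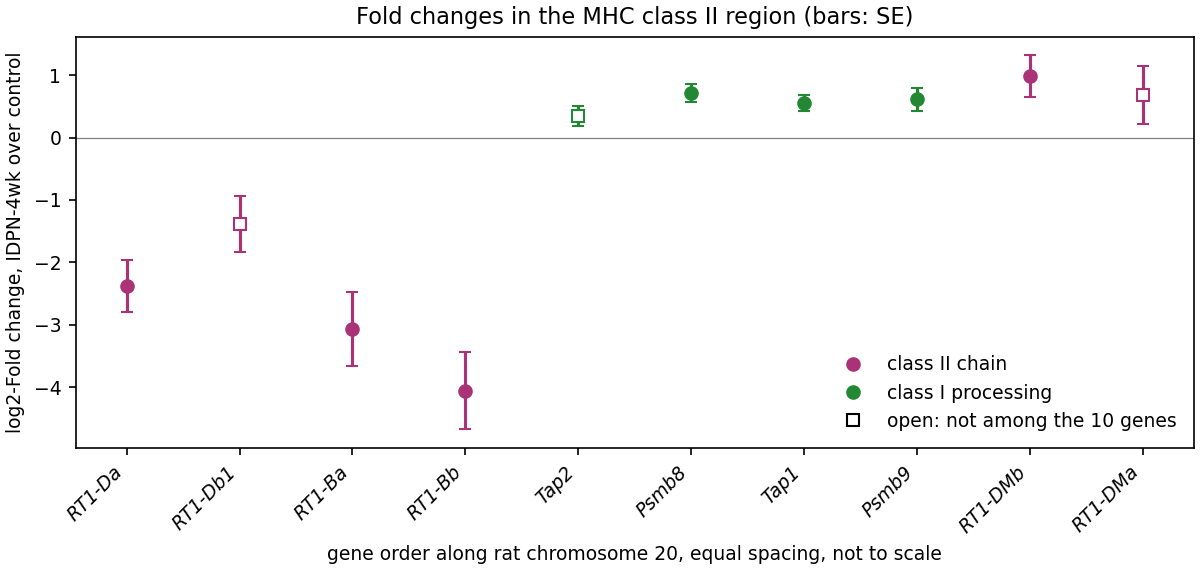
Log2-Fold change (IDPN-4wk over control) of the 10 tested genes of the MHC class II region in their order along chromosome 20, evenly spaced and not to scale, with bars for the SE, purple for class II chains, green for class I processing genes and open squares for genes that are not members. The classical class II chains at one end were negative, and the genes from Tap2 to RT1-DMa were positive.

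The other genes of both pathways were compared list by list to place the members among their partners. The class I heavy chains bind the peptide. Of 24 heavy chain and related genes in the table, 19 were tested, 15 had a positive log2-Fold change, the median was 0.33, and 2 were upregulated and 0 downregulated. Over all tested genes, 3.09% were upregulated and 19.4% had an edgeR Padj under 0.05, which 11 of the 19 had. Of these 11, Hfe (-0.40, edgeR Padj 0.0177) was the only lower gene, and it was under the fold change threshold. RT1-T24-3 rose from 2.65, 2.66 and 3.82 CPM to 13.2, 13.4 and 8.56 CPM (log2-Fold change 1.94, SE 0.25, edgeR Padj 4.11e-04). RT1-N3 rose from 9.43, 7.48 and 8.28 CPM to 13.9, 12.6 and 12.9 CPM (log2-Fold change 0.64, SE 0.16, edgeR Padj 0.0153). Neither gene overlapped between the groups. RT1-N3 lost its call without control replicate 2 (log2-Fold change 0.57), control replicate 3 (0.63) or IDPN-4wk replicate 1 (0.60).

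The classical heavy chain RT1-A2 was at 250, 299 and 271 CPM in control and at 367, 418 and 319 CPM in treated rats, an increase without overlap that was too small for the fold change threshold (0.43 on the log2 scale, SE 0.10, edgeR Padj 0.0157). Summed over the 20 RT1 heavy chain genes in the table, the level was 1561, 1675 and 1485 CPM in control and 1982, 2093 and 1835 CPM in treated rats, or 125% of control on average. Every treated rat was again above every control. Heavy chain genes resemble one another and the authors' counting shares reads among them. Whether the sum is firmer than the single genes was not tested. In control, RT1-S3 (642 CPM) and RT1-A2 (273 CPM) made up much of the mean sum of 1573 CPM. MHC genes also vary between strains, and how reads of Long-Evans rats map to the reference at these genes, class II chains included, was not tested.

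In the remaining class I machinery the 1 called gene was lower. Of 12 peptide loading and trimming genes, all tested, 4 had a positive log2-Fold change, the median was -0.13, and 1 gene was called. This was Calr, a chaperone of the endoplasmic reticulum that holds heavy chains during loading, which was downregulated from 689, 954 and 820 CPM to 620, 516 and 502 CPM (log2-Fold change -0.59, SE 0.12, edgeR Padj 0.00651). Calr lost its call without control replicate 2 (log2-Fold change -0.47), IDPN-4wk replicate 2 (-0.55) or IDPN-4wk replicate 3 (-0.54), or with scaling by library size only (-0.48). Erap1 (-0.47, edgeR Padj 0.00263) and Pdia3 (-0.44, edgeR Padj 0.0240) were also lower, but under the fold change threshold. An edgeR Padj under 0.05 was reached by 3 of the 12 genes and by 19.4% of all tested genes. Tap2, the partner of Tap1, averaged 14.6 CPM in control and 18.6 CPM in treated rats (SD 2.36 and 2.42, n = 3 each), a log2-Fold change of 0.35 with SE 0.16 (edgeR Padj 0.145).

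Constitutive proteasome subunits were compared as well, because Psmb8 and Psmb9 replace such subunits. Psmb5, Psmb6 and Psmb7 had log2-Fold changes of 0.06, 0.15 and 0.07, with edgeR Padj of at least 0.279. Psmb6 is the subunit that Psmb9 replaces, and Psmb5 the one that Psmb8 replaces. Of the 8 proteasome genes of the list, which also held Psmb10, the remaining immunoproteasome subunit (log2-Fold change -0.22, edgeR Padj 0.260), 0 were called by edgeR or DESeq2 and 1, Psme3 (0.23), had an unadjusted p under 0.05. Over all tested genes, 33.1% had such a p, which is the background for this count and those of the lists that follow. The median of the list was 0.11.

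Among 16 transcription regulators of the MHC genes, 13 were tested, with a median log2-Fold change of 0.00. Irf1, an interferon regulatory factor that acts on class I genes, was the 1 upregulated gene and 0 were downregulated. It rose from 14.5, 18.4 and 16.1 CPM to 38.5, 28.5 and 29.0 CPM, without overlap (log2-Fold change 0.97, SE 0.15, edgeR Padj 0.00122). Rfx5, a subunit of the RFX complex, was not called (0.20, SE 0.19, edgeR Padj 0.515). Ciita was too rare for the test, with 11 counts over the control and 2 over the IDPN-4wk libraries. Its IDPN-4wk level was 16.4% of control, with a 95% exact interval from 1.76 to 74.9%, so its size could not be set at this depth.

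The other class II genes gave few calls. Of the 6 other class II chains in the table, only RT1-Db1 and RT1-DMa were tested, and 0 passed both thresholds with edgeR, 1 with DESeq2 and 1 had an unadjusted p under 0.05, in both cases RT1-Db1. RT1-Db1, the beta chain of RT1-D, was at 2.39, 4.19 and 1.84 CPM in control and at 0.719, 1.65 and 0.773 CPM in treated rats, without overlap (log2-Fold change -1.38, SE 0.45, edgeR Padj 0.0533), and it was called without IDPN-4wk replicate 2 (-1.90). Of 9 tested genes of class II peptide handling and turnover, 0 were called by edgeR or DESeq2 and 6 had an unadjusted p under 0.05, with a median of -0.05. Of these 6 genes, Ctsb, Ctsd, Ctsz and March8 were negative and Ifi30 and Ctsl positive. Ctss, the protease that trims the invariant chain, stood at 0.28 on the log2 scale (edgeR Padj 0.487). Of 3 tested costimulation genes, 0 were called by edgeR or DESeq2 and all 3 had an unadjusted p under 0.05, with a median of 0.56. Cd40, a receptor by which T cells license presenting cells, was at 1.29, 1.68 and 0.779 CPM in control and 2.59, 2.73 and 2.77 CPM in treated rats (log2-Fold change 1.10, SE 0.35, edgeR Padj 0.0513).

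**Figure D4:**
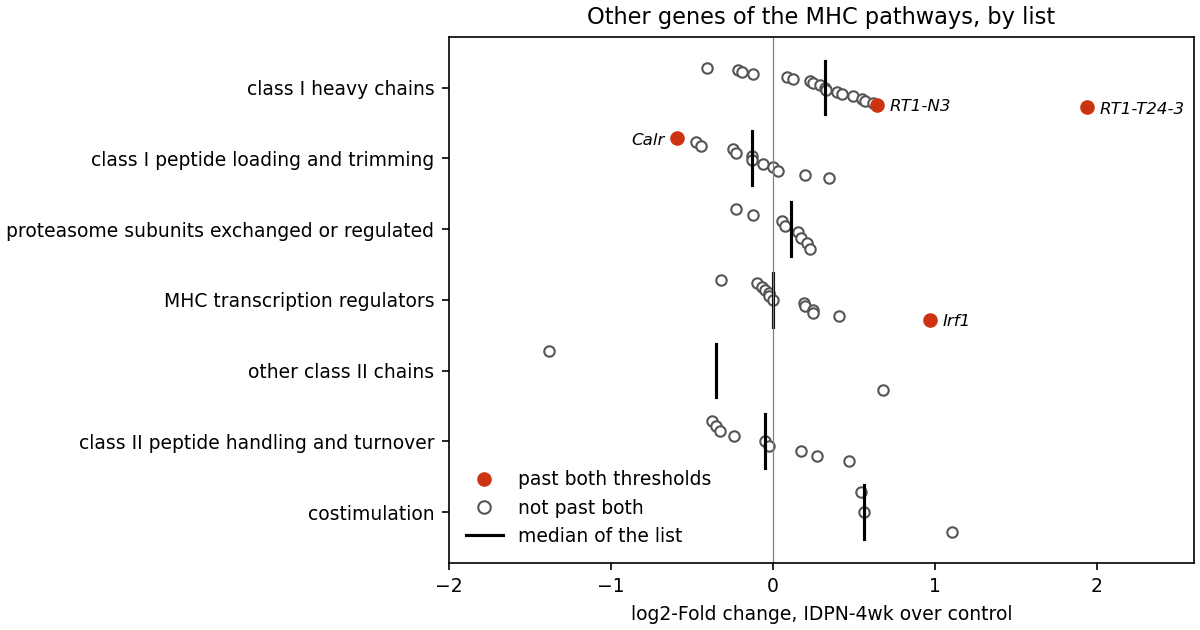
Log2-Fold change (IDPN-4wk over control) of the tested genes of 7 pathway lists, without the 10 members, with 1 point per gene, filled where both thresholds were passed, and a vertical line at the median of each list. The 4 filled points are RT1-T24-3, RT1-N3 and Irf1, which were higher, and Calr, which was lower.

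Markers of the cells that carry class II were measured beside the class II fall. In bulk RNA, fewer cells of a type and less RNA per cell cannot be told apart. The summed level of 14 macrophage genes was from 141 to 191 CPM in control and from 134 to 244 CPM in treated rats. Of these 14 genes, all tested, 0 were downregulated and 2 were upregulated, C1qb (log2-Fold change 0.71, SE 0.19, edgeR Padj 0.0271) and Cd14 (0.69, SE 0.12, edgeR Padj 0.00261). C1qb lost its call without control replicate 3 (0.53) or IDPN-4wk replicate 1 (0.52). Of the 14 genes, 8 had a positive and 6 a negative log2-Fold change, with a median of 0.21. The lowest was Cd163, a scavenger receptor of resident macrophages, at 7.74 CPM in control and 3.72 CPM in treated rats (SD 4.36 and 1.57, n = 3 each), or -1.06 on the log2 scale with SE 0.42 (edgeR Padj 0.101). DESeq2 called 3 genes of the list, with Cd163 as a lower gene beside C1qb and Cd14, and edgeR also called Cd163 without control replicate 3. Cx3cr1 (-0.61, edgeR Padj 0.293), Mrc1 (-0.43, edgeR Padj 0.371) and Adgre1 (-0.34, edgeR Padj 0.649), further receptors of macrophages named after their values were seen, were not called. Nor were the positive genes Cd68 (0.63, edgeR Padj 0.146), Fcer1g (0.63, edgeR Padj 0.152), C1qc (0.37), C1qa (0.30), Tyrobp (0.29) and Aif1 (0.14). The list thus held values in both directions, from -1.06 (Cd163) to 0.71 (C1qb). Cd68 was called as higher in 1 of the 6 fits that left out a library. Csf1r, the growth factor receptor of macrophages and the most abundant gene of the list, was at 53.7, 58.0 and 45.6 CPM in control and 52.2, 21.0 and 39.9 CPM in treated rats (log2-Fold change -0.49, edgeR Padj 0.201). The macrophage sum thus overlapped between the groups, but it was uneven among the treated rats, at 244, 134 and 168 CPM, and replicate 1 alone was above all controls. Without IDPN-4wk replicate 1 the median of the list was -0.07 and 3 genes were called, Adgre1 (-1.29) and Mrc1 (-0.94) lower and Cd14 higher. The part of macrophages in the class II fall was not tested.

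Several markers of rarer presenting cells were near the limit of detection. Of 10 dendritic cell genes in the table, 4 were tested, 0 were called by edgeR or DESeq2 and 1 had an unadjusted p under 0.05. This was Itgax, an integrin also found on macrophages, at 0.194, 0.559 and 1.49 CPM in control and 3.09, 0.516 and 3.99 CPM in treated rats, which overlapped (1.75 on the log2 scale, edgeR Padj 0.133). The sum of all 10 was from 59.7 to 73.6 CPM in control and from 52.2 to 67.9 CPM in treated rats, most of it from Cd83, which other cells also express (log2-Fold change -0.25, edgeR Padj 0.164), followed, over both groups, by Clec10a (0.24, edgeR Padj 0.625). Zbtb46, a transcription factor of conventional dendritic cells, was well above that limit at 8.79 CPM in control and 9.23 CPM in treated rats (SD 1.16 and 2.22, n = 3 each), or 0.07 on the log2 scale (edgeR Padj 0.847). Xcr1, Batf3 and Siglech, which define subsets of dendritic cells, were at 0 in every library, and Flt3 had 7 counts in all control libraries and 0 in all IDPN-4wk libraries (95% exact interval up to 62.4% of control). Of 11 B cell and plasma cell genes, 3 were tested, 0 were called by edgeR or DESeq2 and 1 had an unadjusted p under 0.05, with sums from 3.84 to 5.45 CPM in control and from 3.04 to 4.25 CPM in treated rats. Pax5 and Cr2 were at 0 in every library. The most abundant B cell genes were Cd22 (log2-Fold change -1.03, edgeR Padj 0.104) and Cd37 (0.10, edgeR Padj 0.892). The part of B cells and dendritic cells in the class II fall was not tested.

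T and NK cell genes, which read class I, had sums from 6.78 to 11.4 CPM in control and from 11.6 to 15.9 CPM in treated rats. These sums did not overlap, and of the 2 tested genes, Lck (log2-Fold change 0.65, edgeR Padj 0.102) and Cd3g (0.73, edgeR Padj 0.0971), 0 were called by edgeR or DESeq2 and both had an unadjusted p under 0.05. Cd3g was called without IDPN-4wk replicate 1 (0.95). The sums were almost all from these 2 genes. The T cell receptor subunit gene Cd3e, too rare for the test, had 3 counts in each control library and 0 in each IDPN-4wk library, and Cd3d had 7 counts in control replicate 3 and 0 in the other libraries. Endothelium genes, with Kdr (-0.28) and Cdh5 (0.01) the most abundant over both groups and Tek (-0.36, edgeR Padj 0.0475, under the fold change threshold) next, summed to 234 to 284 CPM in control and 202 to 239 CPM in treated rats, and 0 of 4 were called by edgeR or DESeq2, with 2 at an unadjusted p under 0.05. Csf3r was the 1 granulocyte gene tested (log2-Fold change 0.77, edgeR Padj 0.237). Whether any of these cells had a part in the rise of Nlrc5, Psmb8 and Psmb9 was not tested.

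The genes closest in pattern were found from the log2 profile over the 6 libraries, each centred on its mean over these libraries, as the root mean square distance to the mean profile of the members of a class. The class II profile thus averaged RT1-DMb, which was higher, with members that were lower. The class I profile likewise included B2m, which was level with control. Nearest to the class I profile were Tarsl2 (0.0417), AABR07066818.1 (0.0508), Tmem176a (0.0588), Rassf7 (0.0755) and Cldn3 (0.0782), in log2 units. Nearest to the class II profile were Hdac9 (0.156), LOC691485 (0.159), Hs3st5 (0.169), Syt1 (0.179) and Camk1g (0.182). None of these 10 genes is in the MHC lists used here. Hdac9, at 3.48 ± 1.12 CPM in control and 0.720 ± 0.214 CPM in treated rats (± SD of 3 rats each), fell by 2.26 on the log2 scale. Tarsl2, at 5.61 ± 0.472 and 8.71 ± 0.861 CPM (SD, n = 3 each), had a log2-Fold change of 0.64.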

How the data were processed

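RNA-seq libraries of 3 control and 3 IDPN-4wk rats were made by the authors with SMART-seq2 from oligo-dT primed total RNA. Per the labels, reads were mapped with STAR 2.5.3a and counted with RSEM 1.3.0. The deposited values are expected counts per gene on the build Rnor6.0, given as whole numbers by the authors and used after rounding, which changed none. RSEM shares reads among similar genes, and the protocol keeps no strand. All 6 columns were used.

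Low genes were removed by filterByExpr with a minimum count of 10 and a minimum total of 15, and the rest were scaled with TMM and compared with edgeR 4.0.16 (glmQLFit and glmQLFTest, two-sided, Benjamini-Hochberg adjustment) in R 4.3.3. Standard errors came from the quasi F statistic, and profiles used log2 CPM with a prior count of 2. Depth was from 13358678 to 18561991 counts, and intervals cover counting error only. Groups came from the treatment label, which gives no replicate numbers or litters, so p-values measure the spread between these animals. Titles carry animal codes with 1 prefix for all IDPN-4wk rats, another for control replicates 1 and 2 and a further one for control replicate 3. What the prefix marks is not stated, and it cannot be told apart from treatment.

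The members and gene lists were chosen with earlier results of these data known. Named genes were the 10 members, list genes past both thresholds, Ciita, Rfx5, Irf1, the heavy chain sum and Psmb5, Psmb6 and Psmb7, the 2 most abundant tested genes of each cell type list, and the 5 genes nearest to each class profile. Other names were added after their values were seen. Alternatives were DESeq2 1.42.0, glmTreat, other scalings, no filter and leaving out each library. RefSeq windows of GRCr8 were matched by symbol. The values of 1 listed gene are not reported here.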

Additional observations from a re-analysis of the deposited data

How the results depend on the processing

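Of the 10 members, 9 kept the sign of their log2-Fold change in the 12 alternatives, and B2m turned to -0.07 without IDPN-4wk replicate 2. Cd74, RT1-Ba, RT1-Bb, RT1-Da and Nlrc5 stayed past both thresholds in all 12, Psmb8 in 11 and Psmb9 in 6, while Tap1 passed them in 3 and RT1-DMb in 4. Over all genes, glmTreat called 453 (354 lower and 99 higher) in place of 1394 (950 and 444), library size alone called 762 higher, and leaving out a library gave from 1085 to 1581 calls (768 to 1095 lower and 317 to 486 higher). Under glmTreat, where the 1.5-fold threshold is part of the test, 1 heavy chain and 0 peptide loading, regulator and macrophage genes were called. With library size alone, 5 heavy chains, 0 peptide loading genes, 2 costimulation genes and 1 T and NK cell gene were called. Upper quartile scaling gave 0 peptide loading and 2 costimulation genes (Cd40 and Icam1), no filter gave 2 regulators and 1 other class II chain, and DESeq2 gave 1 other class II chain. Leaving out a library gave from 1 to 4 heavy chains, 0 to 1 peptide loading genes, 1 to 2 regulators, 0 to 1 other class II chains, 0 to 1 class II handling genes (Ifi30, without IDPN-4wk replicate 3), 0 to 1 costimulation genes (Icam1, without control replicate 3 or IDPN-4wk replicate 3), 0 to 1 dendritic cell genes (Itgax, without IDPN-4wk replicate 2), 0 to 1 T and NK cell genes, 2 to 3 macrophage genes and 3 to 5 HC genes. The cause of these moves was not tested. The class I sum had a log2 ratio of 0.17 (0.0699 to 0.26 without a library) and 0.66 as a mean over members. The class II sum had -1.79 (-2.005 to -1.49), and class II over class I had -1.93 (-2.14 to -1.66) and -2.57 as a mean over members. In alternatives chosen after seeing the data, dropping B2m and Cd74 gave 0.65, -0.49 and -1.10 for these 3 ratios, and dropping RT1-DMb gave -2.73 for class II and -2.88 for class II over class I. With a prior count of 0.5, the 5 genes nearest to the class II profile shared 2 with those named. No paired analysis was possible because the labels give no replicate numbers. Depth limits RT1-Ba, RT1-Bb and Ciita, which had few counts in the treated rats.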

Other observations

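Rfxap, a subunit of the RFX complex on class II promoters, had 0 counts in the 3 control libraries and in IDPN-4wk replicate 3, against 82 counts (5.90 CPM) in IDPN-4wk replicate 1 and 248 counts (12.8 CPM) in IDPN-4wk replicate 2. It was removed by the filter on low counts and was past both thresholds only in the fit without the filter and in 2 fits that left out a library.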
